A study of Mus musculus with 24 samples.

Results

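The genes described here are the Wnt ligands, their receptors and the nuclear proteins at the end of the pathway: 19 Wnt genes, 10 frizzled receptor genes, 4 co-receptor genes, Ctnnb1 with the scaffold genes Axin1 and Axin2, and the 4 genes of the LEF/TCF family. They were chosen by symbol, 40 genes of the 18052 rows in the table of sorted stem cells. The same 40 were found among the 20968 genes that a single-symbol probe set represents in the table of bulk tissue and factor-treated cells, where the probe set with the highest mean over the table stood for the gene. Of the 40, 25 have several probe sets in that second table and 15 have 1.

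The series profiled mouse skeletal stem cells (mSSC) and whole bone of the distal femur on 24 Affymetrix arrays, to set newborn, uninjured adult and surgically injured adult joints side by side. All mice were C57BL/6J. Newborns were at postnatal day 3 (P3) and adults were 9 to 25 weeks old. Microfracture (MF) is the piercing of the bone under the joint surface, and the injured adults carried it. The sorted groups were P3_uninjured_mSSC (n = 4), Adult_uninjured_mSSC (n = 3) and Adult_MF_mSSC (n = 3), all with the surface phenotype CD45−TER119−TIE2−ITGAV+THY1−6C3−CD105−. The bulk groups were P3_bulk (n = 3), Adult_uninjured_bulk (n = 5) and Adult_MF_bulk (n = 3). One further array each held stem cells of microfractured adults given PBS, BMP2 or VEGFr1, so all 3 factor arrays share the injury. Each stem cell sample came from 500 to 1000 cells and the RNA was amplified through a pair of rounds. The labels do not say that replicates were separate animals, so the p-values cover no more than the scatter among the deposited samples, part of which may be technical.

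Wnt proteins are lipid-modified ligands that bind frizzled receptors. With the co-receptors LRP5 or LRP6 they stop the destruction of β-catenin, which then enters the nucleus and acts with LEF1 and the TCF proteins, whereas ligands such as WNT5A act through ROR1 and ROR2 without β-catenin. In the skeleton the pathway is known for bone formation and for the growth and maturation of cartilage.

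To show the regulatory sequence next to the genes on which the results turn, 250 bases before the annotated start were taken from RefSeq (mouse build GRCm38.p6) for 6 of them: Ror2 and Fzd9, which were higher in newborns in both tables; Fzd1, which differed in opposite directions; Tcf7l1, the nuclear factor gene with the largest difference; and Fzd7 and Wnt5b, whose windows hold a LEF/TCF-type motif. The letters CTTTGAA were searched on both strands, as were the form CTTTGAT, the form CTTTGTT and the form CTTTGTA, and capitals mark a match, which reads as the reverse complement in Fzd7. All are 5′ to 3′ on the gene's strand.
Ror2 (chr13:53286125-53286374, minus strand): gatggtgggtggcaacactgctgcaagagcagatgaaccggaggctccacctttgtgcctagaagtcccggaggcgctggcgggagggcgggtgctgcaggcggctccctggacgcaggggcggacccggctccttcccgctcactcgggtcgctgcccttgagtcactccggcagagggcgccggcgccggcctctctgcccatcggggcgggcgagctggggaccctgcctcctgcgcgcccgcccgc
Fzd9 (chr5:135251048-135251297, minus strand): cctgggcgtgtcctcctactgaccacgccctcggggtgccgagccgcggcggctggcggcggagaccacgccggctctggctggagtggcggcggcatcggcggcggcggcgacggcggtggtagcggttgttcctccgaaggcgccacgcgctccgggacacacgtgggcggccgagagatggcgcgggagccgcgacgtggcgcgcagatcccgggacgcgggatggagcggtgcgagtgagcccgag
Fzd1 (chr5:4758217-4758466, minus strand): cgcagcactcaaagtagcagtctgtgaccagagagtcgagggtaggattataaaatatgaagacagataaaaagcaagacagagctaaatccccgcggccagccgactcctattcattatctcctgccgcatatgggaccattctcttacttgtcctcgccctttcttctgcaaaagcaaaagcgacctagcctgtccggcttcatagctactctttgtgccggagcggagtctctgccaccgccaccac
Tcf7l1 (chr6:72789046-72789295, minus strand): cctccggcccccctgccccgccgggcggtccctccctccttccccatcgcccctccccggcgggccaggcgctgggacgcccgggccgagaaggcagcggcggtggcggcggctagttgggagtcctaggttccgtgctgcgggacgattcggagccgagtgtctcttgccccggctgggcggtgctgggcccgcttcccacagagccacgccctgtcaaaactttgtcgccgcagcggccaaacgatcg
Fzd7 (chr1:59481897-59482146, plus strand): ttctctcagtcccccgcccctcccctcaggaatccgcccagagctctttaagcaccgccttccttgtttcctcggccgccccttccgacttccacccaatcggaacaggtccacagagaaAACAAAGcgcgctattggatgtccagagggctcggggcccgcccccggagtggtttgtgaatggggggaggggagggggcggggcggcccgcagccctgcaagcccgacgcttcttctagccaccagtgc
Wnt5b (chr6:119449387-119449636, minus strand): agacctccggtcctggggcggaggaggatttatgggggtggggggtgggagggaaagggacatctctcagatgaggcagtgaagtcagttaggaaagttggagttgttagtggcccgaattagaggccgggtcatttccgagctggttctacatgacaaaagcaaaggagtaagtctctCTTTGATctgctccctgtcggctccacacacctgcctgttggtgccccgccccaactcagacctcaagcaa

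RefSeq held 38 such windows for 29 of the 40 genes. A motif was found in 5 of the 38 (13.2%), those of Fzd7, Wnt11, and 1 start each of Lef1, Wnt5b and Tcf7l2, against 14.8% of 32851 mouse promoter windows of the same length. The windows of Ror2, Fzd9, Fzd1 and Tcf7l1 hold none of these letters. Fzd9 has 42 CG pairs in its window, more than 99.1% of promoters, Ror2 has 24 and Fzd1 has 12, where the median promoter has 6.

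Sorted cells were measured as intensities on the MAS5 scale, which sets every array to a similar average signal. A gene was tested if its intensity passed 250.4, the median of the table, in at least 3 arrays, and 25 of the 40 did: 7 of 19 ligands, 8 of 10 frizzled receptors, all 4 co-receptors, Ctnnb1 and Axin1, and all 4 nuclear factors. A gene that passed only through its high group was chosen partly by its difference, so these counts describe the tested genes and nothing more. The 15 untested genes lay between 1.91 and 462.6 in single arrays. They were Wnt1, Wnt2, Wnt3, Wnt3a, Wnt5a, Wnt6, Wnt7b, Wnt8a, Wnt8b, Wnt9b, Wnt10a, Wnt10b, Fzd3, Fzd4 and Axin2.

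The uninjured adult arrays differed from the others in ways that reach beyond these genes. A low-end gauge of the signal, the median over 63 olfactory or vomeronasal receptor genes, was 117 to 211.2 there, 14.5 to 46.3 in microfractured adults and 16.7 to 27.2 in newborns. Ptprc, which encodes the CD45 excluded by the sort, was 3146 to 3865 in uninjured adults, 528 to 791 in microfractured adults and 38.5 to 88.3 in newborns. The summed intensity of 9 myeloid markers ran from 41980 to 62456, from 9376 to 26749 and from 2736 to 3701 in the same order, and Itgav, which the sort requires, was 659 to 1426, 1163 to 1636 and 769.6 to 939. The uninjured adult arrays thus go against the CD45− phenotype of their label. The comparison of newborn with microfractured cells is the one that does not contrast these arrays, although they enter its filter and its shared spread. Ptprc in the microfractured arrays also lay above 250.4 and above all newborn arrays, and their myeloid sum was above that of newborns. That comparison is therefore not free of such a shift. Fitted without the uninjured group, on the same 25 genes, that comparison gave the same counts of 9 higher and 5 lower. The lower ones include Wnt16 and Fzd10, which are among the 25 only through the uninjured arrays. The refit therefore does not free the choice of genes from that group. Newborns also differed in skeletal markers: 8 chondrocyte markers summed to between 71412 and 83772 there and to between 41899 and 57214 in the adults of both kinds, although not each marker was higher (Col2a1 was 5773 on average in newborns and 14916 and 12251 in uninjured and microfractured adults), and 7 osteoblast markers to between 8138 and 8859 against between 41306 and 60044. The part of these shifts in the results was not tested.

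Newborn and uninjured adult stem cells differed in 13 of the 25 tested genes, 8 higher and 5 lower in newborns (limma, 2-sided, Benjamini-Hochberg adjusted p under 0.05 over 10893 genes). Ror2, Tcf7l1, Fzd2, Fzd9, Wnt5b, Fzd6, Lef1 and Tcf7l2 were higher, and Wnt16, Fzd10, Fzd1, Wnt9a and Tcf7 lower. Of all genes tested 54.6% were called (25.2% higher and 29.4% lower), so a share of 13 in 25 is no result about the Wnt genes as a set. Quantile normalization gave 8 higher and 3 lower, centring 14 higher and 3 lower, and no filter 8 higher and 11 lower of all 40, while among all called genes the share of higher ones went from 46.1% to 54.3%, 76.1% and 29.7%. Microfractured and uninjured adults differed in 5 genes, Ror2 being higher and Wnt4, Wnt7a, Wnt16 and Lef1 lower, where 33.1% of all genes were called (13.3% higher and 19.8% lower). Newborn and microfractured cells differed in 14, with 9 higher and 5 lower, where 36.7% were called (18.4% higher and 18.3% lower). The groups did not overlap in 15, 9 and 14 of the 25 genes, the called ones among them, and in 61%, 41.1% and 42.8% of all genes in the 3 comparisons. Each pair of comparisons shares a group of arrays. The median log2 difference of the 25 genes was 0.02, -0.29 and 0.32 in these 3 comparisons, and that of all tested genes -0.02, -0.04 and 0.06.

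**Figure D1:**
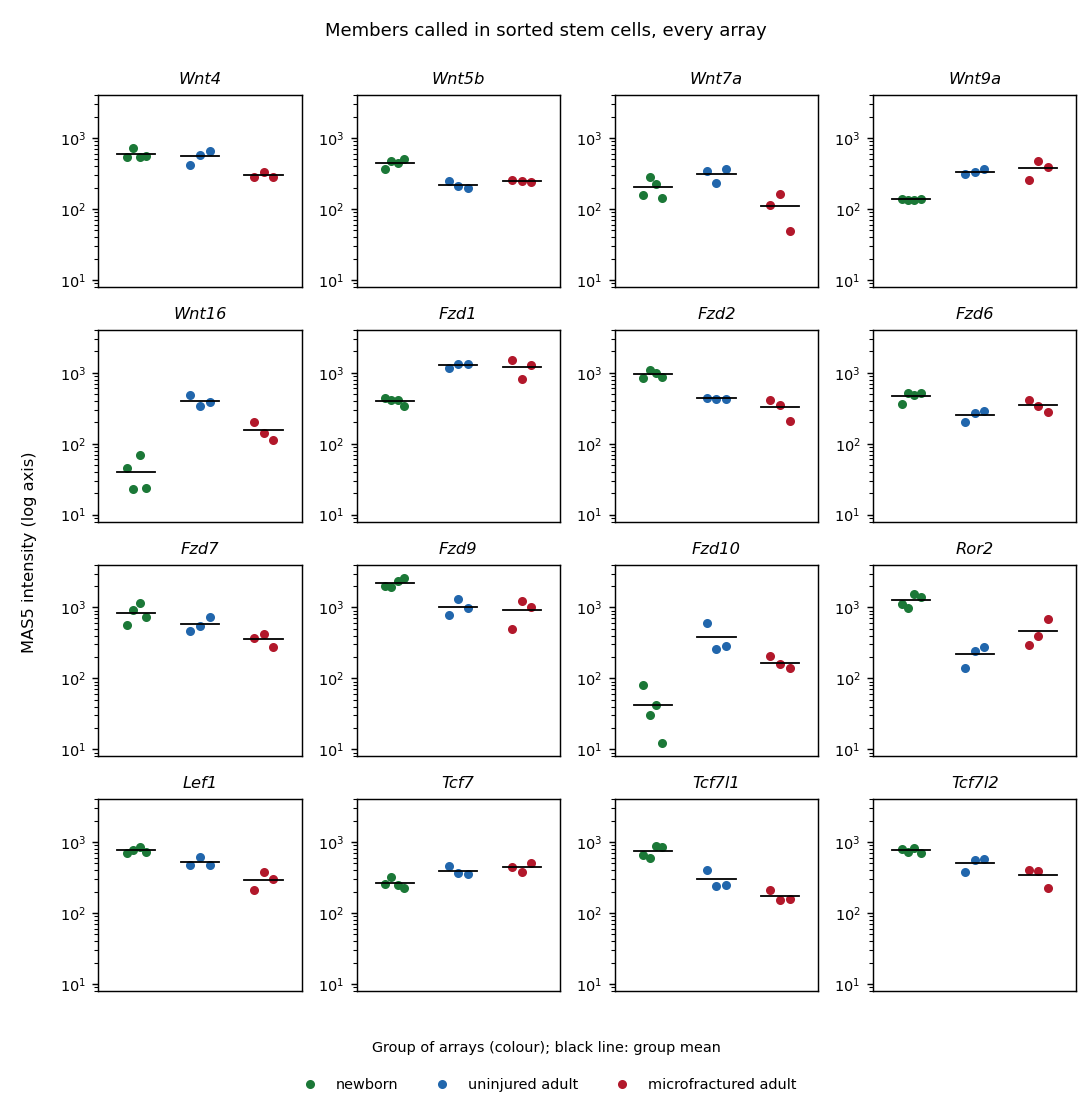
MAS5 intensity (log axis) of the 16 genes called in at least 1 comparison of sorted stem cells, with a point per array, colour for the group and a black line at the group mean. The 4 newborn points of Ror2 (968 to 1565) lie above all 6 adult points, and those of Wnt16 (23.1 to 69.0) and Fzd10 (12.3 to 80.4) below them.

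Among the ligand genes, Wnt16 had the largest difference. WNT16 is a ligand known for its role in cortical bone and in joints. Its intensity was 46.2, 23.1, 69.0 and 23.4 in newborns, 479.6, 345 and 383 in uninjured adults and 205, 143 and 114 in microfractured adults. The 3 groups did not overlap, with uninjured adults highest and newborns lowest. The low-end gauge was also highest in uninjured adults. Wnt16 passed the filter through the uninjured arrays alone, so it could enter the test only by being high there. Without a filter, where every gene of the table was tested, newborn minus uninjured adult had an adjusted p of 5.92e-05 and microfractured minus uninjured adult 0.0262. With the filter the log2 difference was -2.96 ± 0.39 (SE) for newborn minus uninjured adult (limma adjusted p = 5.51e-05) and -1.63 ± 0.39 for newborn minus microfractured adult (adjusted p = 0.00511).

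Wnt9a, a ligand gene with a known role in keeping joint tissue from becoming cartilage, read 138, 134, 136 and 139 in newborns, a narrow band. Uninjured adults gave 311, 328 and 369 and microfractured adults 254, 476 and 389.8. All adult arrays were above all newborn arrays, by -1.20 ± 0.25 for newborn minus uninjured adult (limma adjusted p = 0.00145) and -1.31 ± 0.25 for newborn minus microfractured adult (adjusted p = 0.00125). The first of these was -0.43 (adjusted p = 0.204) after quantile normalization and -0.50 (0.116) after centring arrays on their medians, and it was no longer called in either. Wnt9a passed the filter through adult arrays alone, its high groups, and without a filter both differences were still called.

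Wnt4, a ligand gene active in developing joints and cartilage, gave 537, 726, 547 and 567 in newborns and 419, 578 and 665 in uninjured adults, ranges that overlap. Microfractured adults, at 286, 332 and 282, were below both. The newborn minus microfractured difference was 0.94 ± 0.21 (limma adjusted p = 0.00319). Wnt5b, whose product acts mostly without β-catenin and is known from the growth plate, was between 372 and 500.2 in newborns, 199 and 247 in uninjured adults and 244 and 258 in microfractured adults. It was higher in newborns by 0.97 ± 0.21 (adjusted p = 0.00163) and 0.80 ± 0.21 (adjusted p = 0.00862). Wnt5b passed the filter in 4 newborn arrays, 1 microfractured array and 0 uninjured arrays, so mostly through its high group. Without a filter both differences were still called.

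Wnt7a, best known from limb patterning, read 160.2, 280.4, 223 and 142 in newborns, 347, 233 and 362 in uninjured adults and 115, 162 and 48.9 in microfractured adults, and newborns overlapped both adult groups. Wnt2b gave 479, 437, 375 and 244, 499.7, 678 and 551 and 572, 319.8 and 69.5 in the same order and passed no test, with 1 microfractured array far below the other 2. The remaining tested ligand gene, Wnt11, lay between 220 and 462 in all 10 arrays and passed no test either.

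The frizzled receptors split. Against uninjured adults, newborns had more Fzd2, Fzd6 and Fzd9 and less Fzd1 and Fzd10, and these 5 calls kept their direction and stayed called under quantile normalization and under centring. Fzd9, a receptor gene studied in osteoblasts, had 1988, 1965, 2316 and 2608 in newborns, 777, 1307 and 969 in uninjured adults and 496, 1222 and 1021 in microfractured adults. Every newborn array was above every adult array, and the adult groups overlapped. The log2 difference was 1.13 ± 0.28 against uninjured adults (limma adjusted p = 0.00405) and 1.35 ± 0.28 against microfractured adults (adjusted p = 0.00208).

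Fzd2 encodes a receptor that can pair with ROR2. Newborn values were 833, 1099, 1006 and 858, uninjured adult values 443, 426 and 433, and microfractured adult values 417, 349 and 207. Newborns were again above all adults, by 1.09 ± 0.23 (adjusted p = 0.00145) and 1.55 ± 0.23 (adjusted p = 0.000172) in limma. Fzd6, a receptor gene of planar cell polarity, ran from 364 to 515 in newborns, from 205 to 291 in uninjured adults and from 282 to 416 in microfractured adults. Newborns and uninjured adults did not overlap, with a log2 difference of 0.83 ± 0.23 (adjusted p = 0.00747). Newborns and microfractured adults did overlap, and the difference of 0.42 ± 0.23 did not pass (adjusted p = 0.162).

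Fzd1, a receptor gene of the β-catenin branch, went the other way. Newborn arrays read 435, 413, 409 and 338, uninjured adult arrays 1178, 1317 and 1337 and microfractured adult arrays 1519, 809 and 1284. The newborns were below every adult array by -1.64 ± 0.21 (limma adjusted p = 4.9e-05) and -1.52 ± 0.21 (adjusted p = 0.000115). Fzd10, another frizzled receptor gene, was 80.4, 31.0, 42.7 and 12.3 in newborns, 598, 260.4 and 287 in uninjured adults and 203, 158 and 138 in microfractured adults. The 3 groups did not overlap, and the low-end gauge was likewise highest in uninjured adults. Fzd10, like Wnt16, passed the filter through the uninjured arrays alone, and without a filter its limma adjusted p was 0.000265 against uninjured and 0.0105 against microfractured adults. With the filter the newborn differences were -2.83 ± 0.46 (adjusted p = 0.000258) and -1.79 ± 0.46 (adjusted p = 0.00803), and the adult groups did not pass against each other (adjusted p = 0.117).

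Fzd7, a receptor gene found on many stem cells, gave 568, 921, 1144 and 740.3 in newborns, 472, 540.1 and 734 in uninjured adults and 365, 420.1 and 275 in microfractured adults. Microfractured adults were below both other groups with no overlap, and the difference passed only from newborns among the 3 comparisons in limma (1.19 ± 0.26, adjusted p = 0.00276, against 0.0686 for microfractured minus uninjured). Fzd5 and Fzd8 passed no test, and their arrays lay between 121 and 445 and between 363 and 777.

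Ror2, the receptor kinase gene for ligands such as WNT5A and a gene required for normal cartilage growth, set the groups furthest apart among the co-receptors. Newborns read 1131, 968, 1565 and 1387, uninjured adults 140.3, 244 and 279 and microfractured adults 293, 397 and 687. The order was newborn, microfractured, uninjured, without overlap. Newborns were higher than uninjured adults by 2.46 ± 0.30 (limma adjusted p = 3.43e-05) and than microfractured adults by 1.49 ± 0.30 (adjusted p = 0.00187). Quantile normalization gave 3.17 and 1.36 and centring 3.16 and 1.54, all called.

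The other co-receptor genes passed no test. Lrp5, a partner of the frizzled receptors whose loss weakens bone, read 733, 601, 480.0 and 958 in newborns, 900.1, 664 and 631 in uninjured adults and 2206, 526 and 1110.2 in microfractured adults, where 1 array was far above the other 2. Lrp6, its close relative, stayed between 655 and 991 in all 10 arrays. Ror1, the relative of Ror2, lay between 151 and 393.

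Ctnnb1, which encodes β-catenin, read 2465, 2769, 2916 and 2347 in newborns, 2905, 2818 and 2111 in uninjured adults and 3280.3, 1628 and 1758 in microfractured adults. The groups overlapped and no difference passed, the newborn minus uninjured estimate being 0.02 ± 0.23. Axin1, a scaffold of the complex that destroys β-catenin, ran from 423 to 743 and passed no test. Axin2, a scaffold gene and a common readout of β-catenin activity, was not tested because fewer than 3 arrays passed the threshold. Its values were 159.7, 233, 172 and 124 in newborns, 258, 249 and 257 in uninjured adults and 162, 164 and 169 in microfractured adults. The uninjured arrays were above all others, and so was their low-end gauge (117 to 211.2, against 14.5 to 46.3 in microfractured adults and 16.7 to 27.2 in newborns). The part of the gauge in this order was not tested.

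Of the nuclear factors, Tcf7l1, which encodes a mainly repressing TCF known from embryonic stem cells, had the largest difference. It read 655, 603, 866 and 863 in newborns, 405, 241 and 251 in uninjured adults and 208, 152 and 159.8 in microfractured adults, with no overlap among the 3 groups. Newborns were higher by 1.30 ± 0.24 than uninjured adults (limma adjusted p = 0.000736) and by 2.01 ± 0.24 than microfractured adults (adjusted p = 3.75e-05).

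Lef1, an activating factor gene of bone-forming cells and of lymphocytes, gave 710.2, 767, 863 and 726 in newborns, 471, 611 and 468 in uninjured adults and 209, 376 and 303 in microfractured adults. Newborns were highest and microfractured adults lowest, with no overlap. The newborn minus microfractured difference was 1.36 ± 0.22 (limma adjusted p = 0.000313) and the newborn minus uninjured difference 0.56 ± 0.22 (adjusted p = 0.0411). Tcf7l2, the factor gene best known from gut and pancreas, read 803, 718, 824 and 694 in newborns, 383, 562 and 579.9 in uninjured adults and 398, 396 and 228 in microfractured adults. Newborns were above all adults, by 1.16 ± 0.23 against microfractured (adjusted p = 0.00168) and 0.58 ± 0.23 against uninjured adults (adjusted p = 0.0472).

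Tcf7, the factor gene of the T cell lineage, was the exception among these 4 in direction. It ran from 225 to 323 in newborns, from 353 to 465 in uninjured adults and from 375 to 509.6 in microfractured adults, and newborns were below both. The log2 difference was -0.72 ± 0.21 against microfractured (limma adjusted p = 0.0184) and -0.57 ± 0.21 against uninjured adults (adjusted p = 0.0393), which was 0.14 after centring. The newborn minus uninjured calls of Lef1, Tcf7l2 and Tcf7 lay near the threshold: leaving out 1 of 10 arrays ended the first in 6 cases (any newborn array, or uninjured replicate 1 or 3), the second in 6 (any newborn array, or uninjured replicate 1 or 2) and the third in 5 (newborn replicate 1, 3 or 4, or uninjured replicate 1 or 2). The differences then ranged from 0.50 to 0.69 for Lef1, from 0.40 to 0.69 for Tcf7l2 and from -0.66 to -0.45 for Tcf7. The newborn minus microfractured call of Tcf7 ended without newborn replicate 4 (adjusted p = 0.0511) or microfractured replicate 3 (0.0672). The summed intensity of 9 T lymphocyte markers was between 1817 and 2645 in uninjured adults. It was between 275 and 777 in microfractured adults and 397 and 713 in newborns. Means of single markers in uninjured adults ran from 60.1 (Lck) to 559.5 (Cd3g), where the low-end gauge was 117 to 211.2. That gauge was 14.5 to 46.3 in microfractured adults and 16.7 to 27.2 in newborns. The part of T cells or of the raised low end in the values of Lef1 and Tcf7 was not tested.

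**Figure D2:**
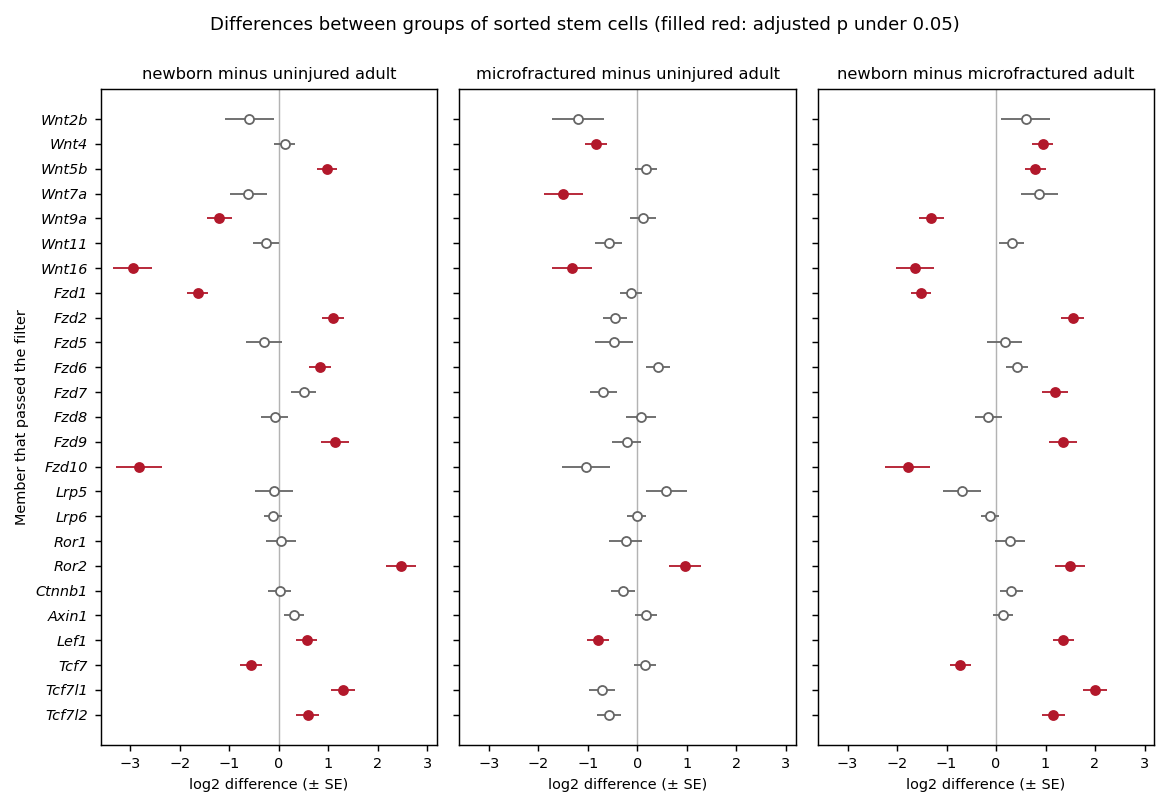
Log2 difference with its standard error for the 25 tested genes in each comparison of sorted stem cells, filled red where the limma adjusted p is under 0.05. Both panels with newborns hold Ror2 (2.46 and 1.49) and Tcf7l1 (1.30 and 2.01) on the right and Wnt16 (-2.96 and -1.63), Fzd10 and Fzd1 on the left, and the microfracture panel has 5 filled points.

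Microfracture gave the least stable picture. Ror2 was higher after injury by 0.97 ± 0.32 (limma adjusted p = 0.0354), and Wnt7a, Wnt16, Wnt4 and Lef1 lower by -1.50 ± 0.40 (0.0141), -1.32 ± 0.41 (0.0273), -0.83 ± 0.22 (0.0137) and -0.80 ± 0.23 (0.0193). Ror2 stayed called with quantile normalization (1.80) and centring (1.62), but none of the 4 lower genes did: these scalings gave 3 genes higher (Ror2, Fzd6 and Wnt5b) and 8 higher (those 3 with Axin1, Lrp5, Lrp6, Tcf7 and Wnt9a), and none lower. Centring moved the median of all tested genes from -0.04 to 0.61, and the share of higher genes among all called from 40.3% to 84%. Without uninjured replicate 1, 2 or 3, 2 genes were called in each case, of the 21, 23 and 22 that still passed the filter. Of all 25, 2 were called without microfractured replicate 3 and 9 without microfractured replicate 1. Ror2 was not called without uninjured replicate 1 or 2 or without microfractured replicate 2 or 3. Among fits that still tested the gene, Wnt7a was lost without microfractured replicate 3, Wnt16 without microfractured replicate 2 or 3, Wnt4 without uninjured replicate 3 and Lef1 without uninjured replicate 2.

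The bulk tissue was measured as an activity score that runs from -100 to 100 and whose computation is not given in the sources used here. In whole bone, fewer cells of a type and less RNA per cell cannot be told apart. A gene was tested if its score passed -16.4, the median of the table, in at least 3 arrays, and 31 of the 40 did: 15 ligands, 9 frizzled receptors, the 4 co-receptors, Axin1, Lef1 and Tcf7l2. Of these 31, 22 were also tested in the sorted cells. Newborn bone differed from uninjured adult bone in 5 genes, all receptors and all higher: Fzd2, Ror2, Fzd1, Fzd6 and Fzd9. Of all 16606 genes tested 6.36% were called, 2.01% as higher and 4.35% as lower, and 16.3% had groups that did not overlap. An unadjusted p under 0.05 was found for 10 of the 31 and for 20.4% of all genes. Bone of the 2 ages differed in cell type markers as well: the mean score of 8 chondrocyte markers was 82.3 to 87.6 in newborn, 17.5 to 46.3 in uninjured and 15.7 to 38.8 in microfractured bone, and that of 10 B lymphocyte markers -15.4 to -2.8, 48.8 to 56.5 and 34.7 to 55.7. Their part in the results was not tested.

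Ror2 scores were 84.3, 56.3 and 38.9 in newborns, -28.8, -55.6, -37.2, -8.60 and -15.1 in uninjured adults and -3.23, -1.37 and -4.97 in microfractured adults. The order of the groups was that of the sorted cells, again without overlap. Newborn minus uninjured was 88.9 ± 15.8 points (SE, limma adjusted p = 0.0094), and newborn minus microfractured 63.0 ± 17.7, which did not pass (adjusted p = 0.112).

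Fzd2 scores were 62.4, 55.9 and 48.0 in newborns, -99.6, -36.9, -52.5, -95.7 and -99.0 in uninjured adults and -34.6, -52.0 and -17.7 in microfractured adults. Newborns were above all adult arrays, by 132 ± 18.2 points against uninjured adults (limma adjusted p = 0.00295). It passed the filter through the newborn arrays alone, its high group, and without a filter the adjusted p was 0.00331. The other 2 probe sets of the gene did not show this, with mean scores of -86.2 and -77.1 in newborns and -68.7 and -73.2 in uninjured adults.

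Fzd6 scored 45.1, 62.0 and 39.0 in newborns, -61.1, -25.0, -22.0, -37.1 and -22.6 in uninjured adults and -33.8, 15.6 and -3.05 in microfractured adults, and newborns did not overlap with either adult group. The newborn minus uninjured difference was 82.2 ± 15.6 points (limma adjusted p = 0.0122). Fzd6 passed the filter in 3 newborn, 2 microfractured and 0 uninjured arrays, and without a filter this difference was still called. Its other probe sets differed by 58.0 and 84.7 points in the same direction, and when the set with the highest mean over the 11 bulk arrays was used (an alternative added after the data were seen) the adjusted p was 0.142.

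Fzd9, with 1 probe set, scored 19.8, 86.0 and 43.9 in newborns, -13.8, -16.7, -28.1, -58.5 and -16.9 in uninjured adults and -10.6, -73.1 and -23.3 in microfractured adults. Newborns were above all adults, with a newborn minus uninjured difference of 76.7 ± 19.8 (limma adjusted p = 0.0443). The call ended when any 1 of the 5 uninjured arrays was left out, or newborn replicate 2 or 3, or microfractured replicate 3. It also ended without a filter (limma adjusted p = 0.0689) and with the 2 groups fitted alone (0.0628).

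Fzd1 scored 70.3, 49.8 and 54.3 in newborns, -50.3, -7.99, -16.0, -8.97 and -75.6 in uninjured adults and 43.8, -14.7 and 17.1 in microfractured adults. Newborn bone was above adult bone with no overlap, by 89.9 ± 20.3 against uninjured adults (limma adjusted p = 0.0252), while newborn stem cells were below adult stem cells. The second probe set of Fzd1 had newborn and uninjured means of -45.3 and -68.7. The call ended without uninjured replicate 1 (adjusted p = 0.0511) or newborn replicate 1 (0.0614) or 3 (0.0646), and with the mean of both probe sets (56.6 points, 0.0577). Of the 5 genes called between newborns and uninjured adults in both tables, Ror2, Fzd2, Fzd6 and Fzd9 had the same direction and Fzd1 the opposite one. Over the 22 genes tested in both tables the direction was the same for 15. Of all 7601 genes tested in both, 56.5% had the same direction, and of the 509 called in both, 90.6% did.

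**Figure D3:**
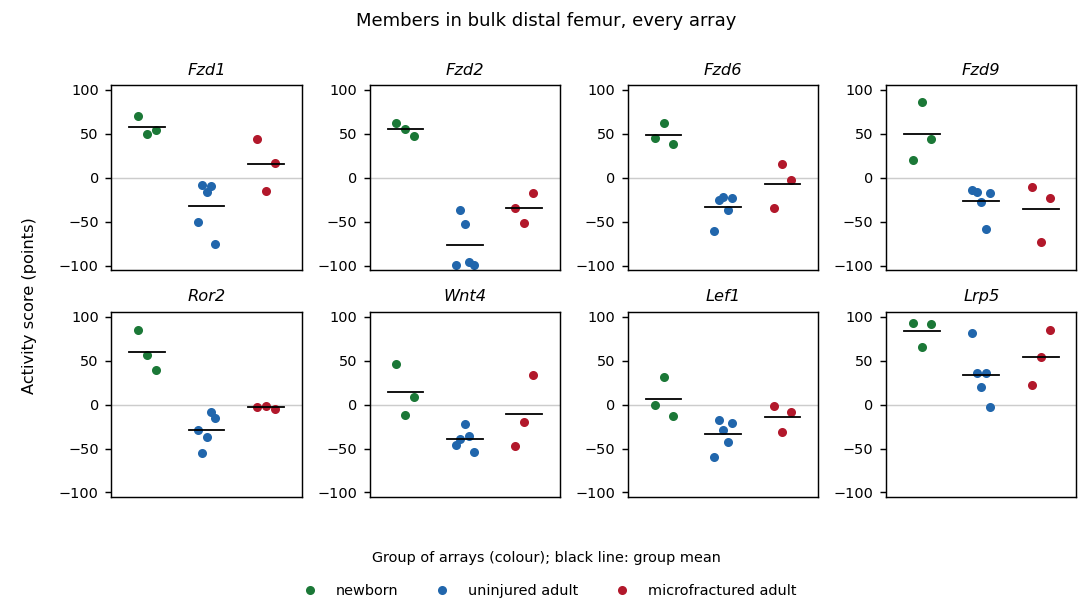
Activity score in bulk distal femur for the 5 genes called between newborns and uninjured adults (Fzd1, Fzd2, Fzd6, Fzd9, Ror2) and for Wnt4, Lef1 and Lrp5, which were not called, with a point per array and a black line at the group mean. In the 5 called genes all 3 newborn points (19.8 to 86.0) lie above all 5 uninjured points (-99.6 to -7.99).

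Beyond those 5 genes no other Wnt gene was called in bulk bone with the chosen probe sets, but with the mean of all probe sets Fzd8 was (87.9 points, limma adjusted p = 0.036). Among sets not chosen, newborns and uninjured adults did not overlap in sets of Wnt5a, Fzd3 and Tcf7l1 (95.0, 51.55 and 25.9 points). The chosen sets of these genes gave 15.7, -12.1 and 4.82 points, with overlap. Wnt4 scored 46.2, -11.8 and 8.64 in newborns and -45.4, -38.7, -22.2, -35.7 and -53.9 in uninjured adults, without overlap, and did not pass (53.6 ± 19.6, limma adjusted p = 0.144). Lef1 scored -0.380, 31.1 and -12.7 and -59.3, -17.3, -28.8, -42.3 and -20.6, also without overlap and not past the threshold (adjusted p = 0.171). Lrp5 scored 93.0, 65.0 and 92.0 in newborns, 81.1, 35.9, 20.0, 36.4 and -2.70 in uninjured adults and 22.2, 54.2 and 84.3 in microfractured adults, ranges that overlap.

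Wnt9a scored 79.7, 51.8 and 82.9 in newborns, 88.2, 89.3, 81.9, 55.4 and 74.6 in uninjured adults and 92.8, 60.0 and 91.8 in microfractured adults, with no order among the groups. Newborn minus uninjured was -6.40 ± 11.6 points and did not pass (limma adjusted p = 0.806). The second Wnt9a probe set had means of 20.1 in newborns and -58.0 in uninjured adults, with overlapping arrays. Fzd10 scored 66.1, 82.0 and 81.7, 62.1, 94.2, 87.0, 87.9 and 87.6 and 96.6, 90.8 and 87.2, and Fzd5 40.2, -29.0 and 86.3, 75.9, 81.1, 81.8, 83.3 and 59.6 and 69.5, 51.1 and 83.6, in that order of groups. Neither passed. Tcf7l2 scored 71.8, 70.3 and 54.9, 92.2, 34.6, 37.2, 50.1 and 50.8 and 29.4, 72.6 and 41.4, where uninjured replicate 1 stood above the rest of its group.

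Wnt7a scored -18.9, 98.5 and 99.0 in newborns, 74.6, 64.3, 56.3, 14.7 and 88.0 in uninjured adults and 85.9, 58.8 and 59.8 in microfractured adults. Ror1 scored 76.0, -42.4 and 1.84, 99.4, 31.8, 91.3, -15.1 and 16.2 and 22.4, -3.21 and -21.0, and Axin1 -2.21, -96.6 and 12.5, 17.5, -57.6, 11.1, -73.5 and -7.54 and 32.3, -46.7 and 98.2. In these 3 genes single arrays spanned most of the scale within a group. The other Ror1 probe sets gave 43.9 and 42.8 points for newborn minus uninjured adult, opposite to the -32.9 of the chosen set. Axin2, not tested, scored -75.1, -9.57 and -98.2, -2.13, -54.4, -74.3, -45.3 and -25.6 and -24.6, -19.8 and -53.4.

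Between microfractured and uninjured bone 0 of the 31 genes were called by limma, as were 0 of all 16606 (0%), where 1627 genes (9.8%) and 3 of the 31 had an unadjusted p under 0.05. Fitting the 2 groups alone called 2 genes of the whole table. The smallest adjusted p of a Wnt gene was 0.487, that of Fzd1, and Ror2 was the only tested one whose groups did not overlap (difference 25.9 ± 15.8), where 9.55% of all genes did not overlap. Wnt16, Wnt4, Lef1 and Wnt7a, called lower after microfracture in sorted cells, had higher means in microfractured bone (by 87.7, 28.1, 19.9 and 8.55 points), none of them called. The direction was the same in both tables for 11 of 22 genes, and for 48.5% of all 7601 genes tested in both. Between newborn and microfractured bone 0 of the 31 were called, where 1.45% of all genes were, and 7 of the 31 had an unadjusted p under 0.05 against 15.2% of all genes. The groups did not overlap in 9 of the 31, against 19.7% of all genes. Fzd2 came closest (90.2 ± 20.4 points, limma adjusted p = 0.0575) and was called after quantile normalization (0.0448) and without the mean-variance trend (0.0416).

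The factor arrays asked how stem cells of injured joints looked after PBS, BMP2, a bone morphogenetic protein, or VEGFr1. With 1 array per treatment there is no test and no spread. A difference past 50 score points was met by 3 of the 40 genes for BMP2 minus PBS, 1 for VEGFr1 minus PBS and 5 for BMP2 minus VEGFr1, where 11.6%, 10.6% and 11.7% of 20968 genes passed it, and all 3 comparisons share arrays. Wnt1 scored -91.3 with PBS, -18.7 with BMP2 and -94.8 with VEGFr1. Wnt7b scored 57.8, -23.1 and 34.9, and its second probe set -12.2, -74.3 and -35.4, so that BMP2 was lowest in both. Ror1 scored 85.0, 16.4 and 90.0, again lowest with BMP2, as were its other probe sets (-10.5, -43.9 and -14.9 in one, 49.3, -65.7 and -53.9 in the other).

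Wnt9b was the gene past 50 points for VEGFr1 minus PBS, with -34.6 for PBS, -42.7 for BMP2 and 56.5 for VEGFr1, while its second probe set stayed between -93.2 and -74.4. Fzd7 differed by 70.7 points between BMP2 (75.3) and VEGFr1 (4.56), with PBS at 33.5, and its second probe set read 2.41 with BMP2, 1.46 with VEGFr1 and 0 with PBS. The receptors that were high in newborn bone differed by under 50 points here: Ror2 scored 31.2, 26.8 and 25.1 and Fzd2 -13.8, -26.0 and -5.95 for PBS, BMP2 and VEGFr1. The second probe set of Fzd1, singled out after its values were seen, scored 82.0 with BMP2 against -15.1 with PBS and -13.5 with VEGFr1, while the chosen set stayed between -51.8 and -38.6. Axin1 was near the top of the scale in all 3 arrays (98.1 to 99.2), as was Wnt2b (92.9 to 98.6).

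**Figure D4:**
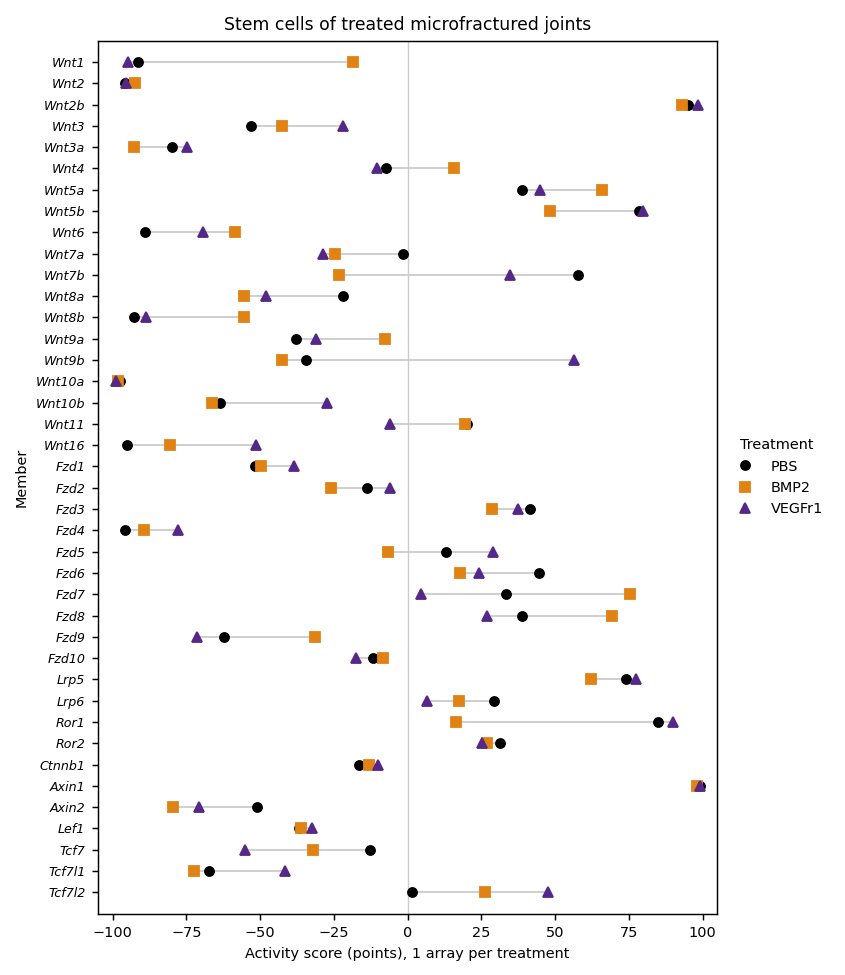
Activity score of each of the 40 genes on the single array per treatment, PBS (black circle), BMP2 (orange square) and VEGFr1 (purple triangle), with a grey line from lowest to highest. The long lines belong to Wnt9b (56.5 for VEGFr1 against -42.7 for BMP2), Wnt7b, Wnt1, Ror1 and Fzd7.

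Around these genes, other parts of the pathway were also measured. The counts below stand beside 25.2% of all genes higher and 29.4% lower in newborn than in uninjured adult cells, 13.3% and 19.8% after microfracture, and 2.01% and 4.35% in newborn against uninjured bone. Of 10 tested secreted inhibitors, 2 were higher and 4 lower in newborns than in uninjured adults. A listed gene could also pass the filter through its high groups alone, and these counts include such genes. Sfrp4, a decoy for Wnt proteins, had intensities of 14.1 ± 9.69 (SD, n = 4) in newborns, 1997 ± 207 (SD, n = 3) in uninjured adults and 2237 ± 904 in microfractured adults, and the adult groups overlapped. Sfrp4 passed the filter through adult arrays alone. Sfrp1, of the same family, had 2703 ± 323, 240.3 ± 38.8 and 277 ± 91.4. After microfracture Sostdc1, a secreted antagonist, was lower (-2.08 ± 0.40 SE, limma adjusted p = 0.00354) and Dkk3, of the Dickkopf family, higher (0.95 ± 0.27, adjusted p = 0.0185). In newborn bone 6 of 12 tested inhibitors were higher and none lower than in uninjured adult bone, counts that quantile normalization and centring left as they were. Sfrp1 (133 ± 20.5 points, adjusted p = 0.00477) and Dkk2 (97.3 ± 24.8 points, adjusted p = 0.0422), whose arrays overlapped, had the largest of these differences. Dkk3, singled out after its values were seen, was lower in newborn cells (-1.80 ± 0.26, adjusted p = 9.94e-05) and higher in newborn bone (84.6 ± 17.4 points, adjusted p = 0.0181), and the difference between those effects was not tested.

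Of the R-spondin axis, which tunes how many frizzled receptors stay on the cell surface, 5 of 9 genes were tested in sorted cells. Rspo2, a ligand that raises Wnt sensitivity, was 5.49 ± 7.07 in newborns, 515 ± 137 in uninjured adults and 1467 ± 391 in microfractured adults. It was higher after microfracture (1.47 ± 0.36, limma adjusted p = 0.00896) and stood lowest in newborns (-4.65 ± 0.33, adjusted p = 4.68e-07). Rspo2 passed the filter through adult arrays alone, its high groups, so it was chosen partly by that newborn difference. Lgr6, an R-spondin receptor, was 291 ± 56.4 in newborn and 1088 ± 88.5 in uninjured adult cells (-1.86 ± 0.23, adjusted p = 3.22e-05). In bulk bone Lgr6 was higher in newborns (91.6 ± 19.6 points, adjusted p = 0.021) and Rspo1 lower (-66.3 ± 16.6, adjusted p = 0.0391). Rspo3 was lower after microfracture (-1.33 ± 0.31, adjusted p = 0.00709), and no gene of this list was called lower after quantile normalization or centring.

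In the branch without β-catenin, Prickle1, a planar polarity gene, was 3873 ± 403 in newborns and 471 ± 165 in uninjured adults (3.04 ± 0.26, limma adjusted p = 1.86e-06), alongside Ror2. Prickle1 was also higher in newborn bulk bone (84.6 ± 17.0 points, adjusted p = 0.0165). In all, 3 of 9 tested genes of this branch were higher and 3 lower in newborn than in uninjured adult cells, Vangl2 among the latter (-1.42 ± 0.33, adjusted p = 0.00264). After microfracture Celsr2, a polarity cadherin gene, was lower (-1.52 ± 0.31, adjusted p = 0.00419) and Nfatc1, a calcium-controlled transcription factor gene, higher (1.01 ± 0.18, adjusted p = 0.00214). Between newborn and uninjured adult cells, 2 of 6 cytoplasmic genes were higher in newborns, Dvl3 (0.98 ± 0.16) and Csnk1a1 (0.59 ± 0.14), and of 7 nuclear partners Tle1 was higher (1.13 ± 0.21) and Bcl9l lower (-0.53 ± 0.19) in the same comparison. Porcn, which attaches the lipid to Wnt proteins, was lower in newborns than in uninjured adults (-1.38 ± 0.27), and Wls, which carries them to the surface, was higher after microfracture (0.85 ± 0.17, adjusted p = 0.00426).

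Among 9 tested genes often used as readouts of the pathway, 2 were higher and 6 lower in newborns than in uninjured adults. Myc, a growth regulator, was 2568 ± 477 and 242 ± 47.0 (3.32 ± 0.23, limma adjusted p = 3.74e-07), and Wisp2, a matricellular protein gene, 133 ± 64.4 and 892 ± 147 (-2.72 ± 0.36, adjusted p = 6.11e-05). After microfracture 4 were higher and 3 lower than in uninjured adults, with Wisp2 the largest rise (1.46 ± 0.38, adjusted p = 0.0128) and Apcdd1, a membrane inhibitor of Wnt signalling, the largest fall (-2.28 ± 0.29, adjusted p = 0.000741). Quantile normalization gave 2 higher and 6 lower in newborns, and 3 higher and 1 lower after microfracture. With centring the counts were 3 higher and 5 lower in newborns, and 5 higher and 1 lower after microfracture. The lists were chosen with results of these data known, so no direction is given for any list as a whole.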

How the data were processed

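RNA of sorted mouse skeletal stem cells and of bulk distal femur was measured on Affymetrix arrays. The authors deposited 2 tables. The first holds linear intensities of 10 sorted arrays for 18052 genes, made with MAS5 per the submitters' processing notes, of which 17994 matched the reference by Entrez number. The second holds the deposited activity score of 11 bulk and 3 factor arrays for 45101 probe sets, of which 38557 have 1 gene symbol, 860 several and 5684 none. How the score was computed is not given in the sources used here.

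Sorted values were analysed as log2(intensity + 16), so that fold changes of low genes are understated, and scores as deposited. Genes above the table's median (250.4 or -16.4) in at least 3 arrays were fitted with limma 3.58.1 in R 4.3.3 (lmFit, eBayes with a mean-variance trend), with all 3 groups of a table in 1 fit, no covariate, and Benjamini-Hochberg adjustment over all genes tested at 0.05. Factor arrays had no test and were read by a difference of 50 points. Array values are given for members called without overlap between the groups, at most the 12 with the largest differences per table, and for the 2 members of each role with the highest mean; the others are given by ranges. Of other pathway lists, the 2 called genes with the largest differences are named per comparison. The method was tested on simulated data. Alternatives were other pseudocounts, filters, scalings, fits, probe set rules, a replicate block and leaving out each array. The members and lists were chosen with earlier results of these data known. The number of arrays limits the precision.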

Additional observations from a re-analysis of the deposited data

Results flagged for a closer look

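In 8 of 80 groups of 4 or more arrays a single array stood far from the rest of its group, on log2 intensities or on scores. Chance gives about 1 in 20 where values spread normally, which bounded scores need not do. In sorted newborn cells these were Wnt2 in replicate 4 (22.1, the others 2.4 to 4.6), and Wnt3 (55.1, the others 2.4 to 3.3) and Wnt7b (68.9, the others 18.4 to 23.8) in replicate 2, all under the level at which genes were tested. In uninjured adult bone replicate 1 stood apart for Wnt1 (-37.4, the others -95.9 to -88.5), Fzd10 (62.1, the others 87.0 to 94.2), Tcf7l1 (-47.3, the others -94.7 to -85.3) and Tcf7l2 (92.2, the others 34.6 to 50.8). Lrp6 scored 76.7 in replicate 5 of that group, the others -98.0 to -63.7.

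Fzd1 differed in opposite directions in sorted cells and in bulk bone, with no overlap between newborns and adults in either. Newborn minus uninjured adult was -1.64 on the log2 scale in sorted cells and 89.9 score points in bone, and newborn minus microfractured adult -1.52 and 42.7. The second Fzd1 probe set gave 23.3 points between newborns and uninjured adults. The units differ and the difference between the effects was not tested.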

How the results depend on the processing

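The call counts in sorted cells changed with the filter, and so did the direction of the calls. Among all genes called after microfracture, 24.8% were higher without a filter, 40.3% as reported and 70.8% with the 75th percentile filter. Without a filter 6242 genes and 9 Wnt genes were called between microfractured and uninjured adults (3606 and 5 as reported) and 9549 genes between newborns and uninjured adults. All 40 Wnt genes were then tested, of 18052 genes, and 34.6% and 52.9% of all genes were called (33.1% and 54.6% as reported). With the filter at the 75th percentile 13 Wnt genes were tested, of 5679 genes. The counts were then 1742 and 2, 3369 and 6, and, between newborns and microfractured adults, 2628 and 8. Of all genes tested, 30.7% were called after microfracture and 59.3% between newborns and uninjured adults. Quantile normalization called 3 Wnt genes after microfracture, centring 5811 genes and 8 Wnt genes, and fitting the 2 groups alone 2293 and 2. These fits tested 25 Wnt genes and called 25.8%, 53.3% and 21.1% of all genes. Reversed differences were those of Tcf7l1 after microfracture with quantile normalization (0.033), of Tcf7l2 after microfracture with centring (0.08) and of Tcf7 in newborns against uninjured adults with centring (0.14). The cause was not tested. Leaving out 1 array gave 1806 to 4150 genes and 2 to 9 Wnt genes after microfracture, and 8 to 13 Wnt genes between newborns and uninjured adults, the 8 being without uninjured replicate 1. Wnt7a, Wnt16 and Fzd10 were tested in 7 of the 10 such fits, since they passed the filter in no more than 3 arrays: the uninjured ones for Wnt16 and Fzd10, and 2 uninjured and 1 newborn for Wnt7a. Over the called sorted Wnt genes, 274 fits with 1 array left out kept the call and 28 lost it.

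In bulk bone the 75th percentile filter called 2 Wnt genes between newborns and uninjured adults and 141 genes between newborns and microfractured adults. For the latter pair, quantile normalization called 1 Wnt gene, a fit without the variance trend 416 genes and 1 Wnt gene, the mean of all probe sets 398 genes, and the 2 groups alone 0. Between microfractured and uninjured bone the 2 groups alone gave 2 genes. Leaving out 1 array gave 0 to 67 genes for microfracture, 597 to 1044 genes and 2 to 5 Wnt genes for newborns against uninjured adults (3 without uninjured replicate 1, newborn replicate 1 or newborn replicate 2, and 2 without newborn replicate 3), and 73 to 331 genes for newborns against microfractured adults. For the factor arrays, 25 points were passed by 14, 11 and 15 genes. Quantile normalization gave 2 for VEGFr1 minus PBS and the mean of probe sets 3 for BMP2 minus VEGFr1.

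Replicate numbers did not pair the samples: same-numbered arrays deviated together with correlations between -0.222 and 0.278, and no comparison had every pair above 0.1. The fit with the replicate number as a block called 0 genes and 0 Wnt genes in newborn against uninjured bone and 0 genes in newborn against microfractured bone. In sorted cells under the block, the newborn minus uninjured differences of Lef1 (0.59, limma adjusted p = 0.0587), Tcf7l2 (0.62, 0.0862) and Tcf7 (-0.50, 0.139) and the newborn minus microfractured difference of Tcf7 (-0.65, 0.0822) were no longer called. Replicate arrays correlated at 0.834 to 0.968 in sorted cells and 0.267 to 0.708 in bulk bone, and the noisier scores limit what bulk bone can show.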

Other observations

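Of the 40 genes, 4 pairs of ligand genes lie next to each other on their chromosome with 0 protein-coding genes between them: Wnt6 and Wnt10a on chromosome 1, Wnt3a and Wnt9a and also Wnt9b and Wnt3 on chromosome 11, and Wnt10b and Wnt1 on chromosome 15. In sorted cells Wnt9a was the only gene of these pairs that passed the filter.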
